A study of Mus musculus with 15 samples.

Results

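The genes described here encode the plasma proteases, cofactors, inhibitors and pattern-recognition proteins with which the liver supplies blood clotting, fibrinolysis and complement. They were 36 genes chosen by their function: 13 procoagulant factors, 11 anticoagulants, fibrinolysis proteins and their inhibitors, and 12 complement and lectin pathway components. Of these, 33 had a probe set annotated to them alone among the 19938 genes measured. C3, the central complement protein, and Cpb2, an inhibitor of fibrinolysis, had none, and Klkb1, plasma prekallikrein, lay only on a probe set shared with Cyp4v3.

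Clotting runs through a chain of serine proteases that ends when thrombin (F2) cuts fibrinogen into fibrin, and antithrombin, protein C and protein S hold the chain in check. Plasmin dissolves the clot, and complement uses a related protease chain to mark and lyse microbes. Most of these proteins are secreted by hepatocytes, and in the embryo the liver makes them while it is also the main site of red cell formation. A few have other sources as well: factor V is also stored in platelets, and protein S is also made by endothelial cells and megakaryocytes.

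RNA came from E14.5 fetal livers of FVB/NJ mice that were wildtype (WT) or labelled as Klf3 knockout (KO). KLF3 is a zinc-finger repressor of the Krüppel-like factor family that is expressed in erythroid cells. Magnetic beads against TER119, an antigen of maturing red cell precursors, were used to retain TER119+ cells and to deplete them for the TER119- fraction, and the RNA was hybridised to Affymetrix MoGene 1.0 ST arrays. There were 4 WT TER119+, 3 KO TER119+, 4 WT TER119- and 4 KO TER119- arrays, 15 in all. The labels do not describe the knockout allele, nor whether replicates were separate embryos, so p-values measure the spread between these arrays, which may be technical. These are mixed preparations, in which fewer cells of a type and less RNA per cell cannot be told apart.

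Markers bore on the labels as follows. All 13 measured late erythroid markers were higher in TER119+ than in TER119- WT arrays, and all 13 neutrophil markers were lower. TER119+ arrays also carried hepatocyte RNA: 22 of 25 hepatocyte-lineage markers were higher there, their mean log2 level was 9.18 to 9.82 in WT TER119+ against 5.57 to 6.82 in WT TER119- arrays, and 14 of 16 macrophage, 10 of 12 endothelial and 12 of 14 stromal and stellate markers were higher too, with medians of 2.52, 1.78 and 1.29. The Klf3 probe set did not separate the genotypes: it read 9.94 to 10.5 in WT and 10.34 to 10.55 in KO TER119+ arrays, and 7.94 to 8.8 in WT and 8.02 to 8.74 in KO TER119- arrays. Whether this probe set lies in the deleted segment is not stated, so KO is used here as the label. By sex-linked genes, all 4 WT TER119- arrays were male and 3 of the 4 KO TER119- arrays female, whereas both sexes occurred in both TER119+ groups. Of 7 same-numbered TER119+ and TER119- arrays of 1 genotype, 4 differed in sex, so equal numbers do not mark fractions of the same preparation there.

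The stretches before the transcription start sites of these genes were set beside those of all genes. RefSeq (GRCm38.p6) supplied 250 bases upstream of the start for 29 of the 36 genes, 30 windows in all, and both strands were searched for 4 short motifs. A half-site of the hepatocyte factor HNF1, GTTAAT, occurred in 7 of the 30 windows (23.3%, against 6.44% of the 32807 windows of all genes). The C/EBP motif TTGCNNAA occurred in 9 windows (30%, against 9.57%), the HNF4 core AAGTCCA in 1 (3.33%, against 3.37%), and the GC-rich KLF motif CCNCNCCC in 11 (36.7%, against 45.9%). These are matches of letters, not sites shown to be bound. The 3 fibrinogen genes and Vtn, which were far higher in TER119+ cells, stand beside F10 and Pros1, which were not. Capitals mark every match to any of the 4 motifs, and each sequence runs 5′ to 3′ towards the start site.
Fga (chr3:83025903-83026152, plus strand): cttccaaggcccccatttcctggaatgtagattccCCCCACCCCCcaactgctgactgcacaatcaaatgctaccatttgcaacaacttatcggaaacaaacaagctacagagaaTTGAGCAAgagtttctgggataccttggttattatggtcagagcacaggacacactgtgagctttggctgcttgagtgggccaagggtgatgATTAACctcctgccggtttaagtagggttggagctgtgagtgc
Fgb (chr3:83049864-83050113, minus strand): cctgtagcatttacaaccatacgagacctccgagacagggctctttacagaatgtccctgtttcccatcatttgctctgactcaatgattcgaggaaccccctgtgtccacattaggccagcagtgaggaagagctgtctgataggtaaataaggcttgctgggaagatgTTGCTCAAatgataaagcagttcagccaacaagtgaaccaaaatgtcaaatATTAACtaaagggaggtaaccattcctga
Fgg (chr3:83007474-83007723, plus strand): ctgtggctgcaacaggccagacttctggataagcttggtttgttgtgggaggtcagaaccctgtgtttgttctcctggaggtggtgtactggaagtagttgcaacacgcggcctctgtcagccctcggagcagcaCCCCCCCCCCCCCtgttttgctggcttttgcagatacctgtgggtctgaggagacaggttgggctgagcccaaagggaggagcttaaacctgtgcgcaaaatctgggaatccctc
Vtn (chr11:78498870-78499119, plus strand): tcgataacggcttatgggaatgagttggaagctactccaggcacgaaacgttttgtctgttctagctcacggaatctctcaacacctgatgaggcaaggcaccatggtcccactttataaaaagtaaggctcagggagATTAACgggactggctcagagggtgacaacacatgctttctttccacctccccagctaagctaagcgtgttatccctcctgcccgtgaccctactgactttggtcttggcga
F10 (chr8:13037058-13037307, plus strand): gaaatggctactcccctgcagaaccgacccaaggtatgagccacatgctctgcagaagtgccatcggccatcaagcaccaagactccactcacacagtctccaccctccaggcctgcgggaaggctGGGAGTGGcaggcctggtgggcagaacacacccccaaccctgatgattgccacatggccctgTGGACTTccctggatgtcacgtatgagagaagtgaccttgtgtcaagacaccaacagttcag
Pros1 (chr16:62854057-62854306, plus strand): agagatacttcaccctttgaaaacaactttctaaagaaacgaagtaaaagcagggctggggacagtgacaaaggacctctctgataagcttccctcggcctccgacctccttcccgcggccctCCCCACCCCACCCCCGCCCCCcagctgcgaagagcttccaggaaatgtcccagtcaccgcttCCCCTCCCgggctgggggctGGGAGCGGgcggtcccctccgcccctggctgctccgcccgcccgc

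The HNF1 half-site began 43 bases before the start of Fga, 29 before that of Fgb and 112 before that of Vtn, and Fga and Fgb held a C/EBP match as well. The third fibrinogen gene, Fgg, had neither, only 6 overlapping KLF matches inside a single run of C. F10 was the single gene with the HNF4 core, at 62 bases before the start, together with 1 KLF match. Pros1 had 7 KLF matches and none to the liver motifs. The other genes with the HNF1 half-site were C8a, C8b, F13b and Hc. The 6 windows shown do not stand for the rest, given here with WT log2 differences, TER119+ minus TER119-. Serpinf2 (6.12), Serpind1 (3.32) and F12 (3.29) had no match to any motif, nor had C6 (0.71), Mbl2 (0.04) and F5 (0). The C/EBP match also occurred in Hrg (0.25), F9 (0.67) and C9 (1), as in F11 (2.24) and Ahsg (6.22). KLF matches also occurred in F2 (4.91), Fga (4.29), Serpinc1 (3.32), C8b (3.02), C8g (1.57), Masp2 (1.56) and F7 (1.01). Cpb2, which was not measured, had 1 as well. Whether matches follow the levels was not tested.

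The first comparison set TER119+ against TER119- cells of WT livers. Here 29 of the 33 measured genes were higher in TER119+ cells and none was lower at an adjusted p under 0.05. Of all genes, 23.5% were higher and 29.1% lower. The median log2 difference of the 33 was 3.15, against -0.09 over all genes, with a range of -0.49 to 6.22. In KO livers 30 of the 33 were higher and none lower (22.6% of all genes were higher and 26.5% lower), with a median of 3.63. In 28 of the 33, every one of the 7 TER119+ arrays lay above every one of the 8 TER119- arrays, as in 18.3% of all genes. In all 8 TER119- arrays, 13 of the 33 stayed below the array's median over all probe sets, as did 42.3% of all genes. The deposited values carry no detection calls, so whether such dim values exceeded background is unknown and the differences resting on them are approximate. Per-array values below are log2 expression in the order of the replicate numbers.

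**Figure D1:**
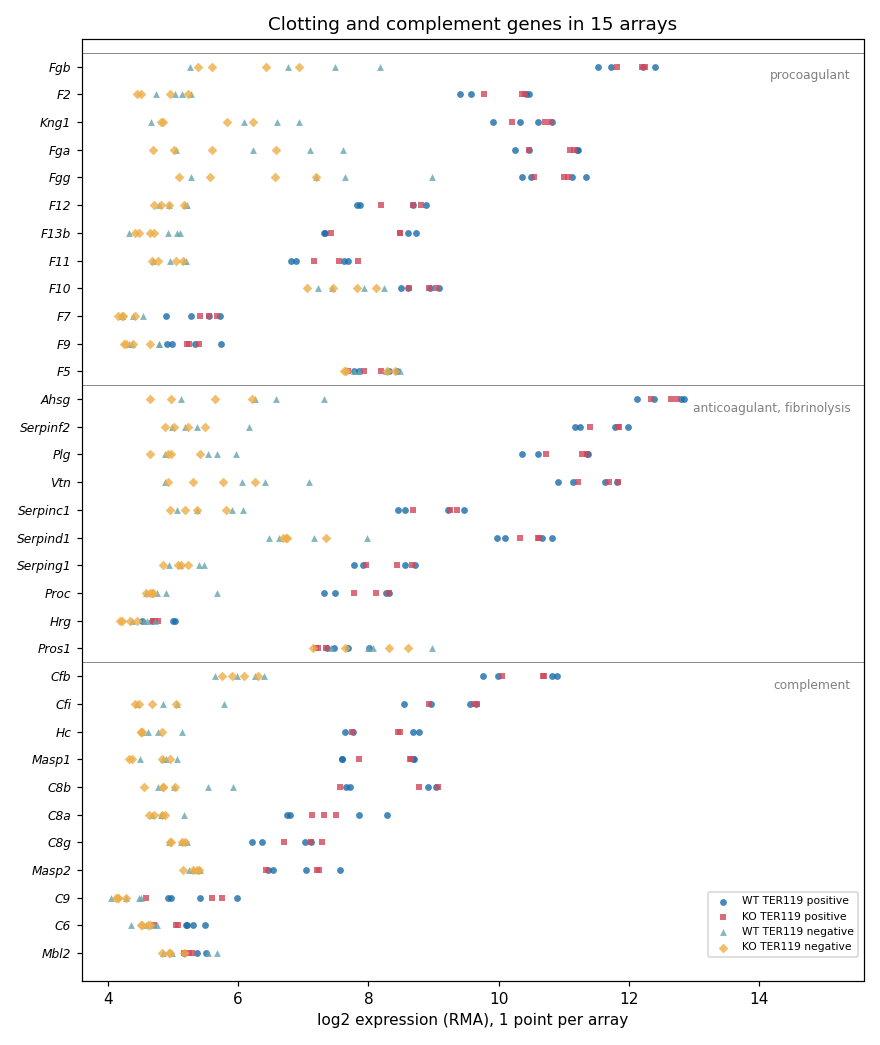
Log2 expression of the 33 measured clotting and complement genes (horizontal axis) in each of the 15 arrays, 1 point per array, with genes on the vertical axis grouped by role. In most rows the TER119+ points (WT circles, KO squares) lie to the right of the TER119- points (WT triangles, KO diamonds), whereas F5, Pros1, Hrg, Mbl2 and C6 overlap.

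Among the procoagulant factors, 11 of 12 were higher in WT TER119+ cells, with a median difference of 3.22. Fga, the alpha chain of fibrinogen, read 10.25, 11.21, 10.47 and 11.2 in WT TER119+ arrays and 5.04, 6.22, 7.1 and 7.61 in WT TER119- arrays. In KO livers Fga read 11.1, 11.15 and 10.46 in TER119+ and 5.6, 5.01, 4.69 and 6.58 in TER119- arrays. The TER119- values were spread more widely than the TER119+ values, the populations did not overlap, and the WT difference was 4.29 (SE 0.47, adjusted p = 7.93e-07). Fgb, the beta chain, read 11.52, 12.4, 11.73 and 12.21 in WT TER119+ and 5.26, 6.77, 7.48 and 8.17 in WT TER119- arrays. In KO livers Fgb read 12.2, 12.25 and 11.81 in TER119+ and 6.43, 5.59, 5.38 and 6.94 in TER119- arrays. Again no TER119- array reached the TER119+ range, and Fgb was 33-fold higher in WT TER119+ cells, a log2 difference of 5.04 (SE 0.47, adjusted p = 1.09e-07). Fgg, the gamma chain, read 10.49, 11.34, 10.36 and 11.12 in WT TER119+ and 5.27, 7.19, 7.64 and 8.98 in WT TER119- arrays. In KO livers Fgg read 11.0, 11.07 and 10.54 in TER119+ and 6.56, 5.56, 5.09 and 7.19 in TER119- arrays. Fgg had the widest TER119- range of the 3 chains, 3.89 log2 units, and its WT difference was 3.56 (SE 0.58, adjusted p = 6.55e-05).

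F2, which encodes prothrombin, the precursor of thrombin, read 9.41, 10.47, 9.57 and 10.42 in WT TER119+ and 4.74, 5.14, 5.03 and 5.28 in WT TER119- arrays. In KO livers it read 10.35, 10.41 and 9.77 in TER119+ and 4.96, 4.45, 4.51 and 5.23 in TER119- arrays. F2 was 30.2-fold higher in WT TER119+ cells (log2 difference 4.91, SE 0.24, adjusted p = 5.65e-11), and all 8 TER119- arrays were below their array medians for it. F10, the protease that cuts prothrombin, read 8.5, 8.95, 8.61 and 9.08 in WT TER119+ and 7.22, 7.93, 8.24 and 7.44 in WT TER119- arrays. In KO livers F10 read 9.03, 8.93 and 8.62 in TER119+ and 8.12, 7.46, 7.06 and 7.83 in TER119- arrays. F10 was above the array median in all 15 arrays, and its WT difference was 1.08 (SE 0.23, adjusted p = 0.000938). F5, the cofactor of F10, read 7.77, 8.32, 7.86 and 8.44 in WT TER119+ and 7.77, 8.27, 8.49 and 7.86 in WT TER119- arrays. In KO livers F5 read 8.19, 7.93 and 7.69 in TER119+ and 8.4, 7.62, 7.65 and 8.28 in TER119- arrays. The populations overlapped for F5 and the WT difference was 0 (SE 0.21, adjusted p = 0.998).

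The contact-phase factors F12 and F11 and the high-molecular-weight kininogen Kng1 differed by 3.29, 2.24 and 4.34 on the log2 scale in WT livers. F13b, the carrier subunit of the clot-stabilising transglutaminase, differed by 3.15. F9 and F7, which act in the intrinsic and the extrinsic pathway, were below the array median in all 8 TER119- arrays and differed by 0.67 and 1.01. All 6 passed the test, so that F5 was the single procoagulant gene of the 12 that did not.

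Among the anticoagulants and the fibrinolysis proteins, 8 of 10 were higher in WT TER119+ cells, with a median difference of 3.32. Ahsg, a serum glycoprotein (fetuin-A) that binds calcium phosphate, was counted in this group, though that function is neither anticoagulant nor fibrinolytic. It read 12.12, 12.85, 12.38 and 12.8 in WT TER119+ and 5.12, 6.26, 6.58 and 7.31 in WT TER119- arrays. In KO livers Ahsg read 12.74, 12.64 and 12.34 in TER119+ and 5.65, 4.97, 4.65 and 6.21 in TER119- arrays. It had the highest difference of the 33 genes in WT livers, 74.4-fold, or on the log2 scale 6.22 (SE 0.38, adjusted p = 6.39e-10). Serpinf2, the main inhibitor of plasmin, read 11.17, 11.98, 11.24 and 11.79 in WT TER119+ and 4.98, 5.19, 5.37 and 6.16 in WT TER119- arrays. In KO livers Serpinf2 read 11.83, 11.85 and 11.4 in TER119+ and 5.23, 4.87, 5.02 and 5.49 in TER119- arrays. The gap between the populations was wider than the spread within either, and the WT difference was 6.12 (SE 0.24, adjusted p = 2.58e-12). Plg, the precursor of plasmin itself, read 10.36, 11.37, 10.61 and 11.36 in WT TER119+ and 4.87, 5.53, 5.67 and 5.97 in WT TER119- arrays. In KO livers Plg read 11.28, 11.35 and 10.72 in TER119+ and 4.97, 4.65, 4.92 and 5.41 in TER119- arrays. Plg was 42.6-fold higher in WT TER119+ cells, so the protease and its inhibitor were both among the 3 highest differences.

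Serpinc1, antithrombin, read 8.56, 9.46, 8.46 and 9.22 in WT TER119+ and 5.06, 5.36, 5.9 and 6.08 in WT TER119- arrays. In KO livers it read 9.36, 9.25 and 8.68 in TER119+ and 5.37, 5.18, 4.96 and 5.81 in TER119- arrays. The WT difference of 3.32 (SE 0.26, adjusted p = 1.47e-08) was 10-fold. Proc, protein C, which cuts factors V and VIII once activated, read 7.32, 8.31, 7.49 and 8.27 in WT TER119+ and 4.59, 4.89, 4.75 and 5.67 in WT TER119- arrays. In KO livers Proc read 8.31, 8.12 and 7.77 in TER119+ and 4.64, 4.58, 4.69 and 4.67 in TER119- arrays. A single array, WT TER119- replicate 4, stood above the other TER119- arrays for Proc, and the WT difference was 2.87 (SE 0.24, adjusted p = 2.6e-08). Pros1, protein S, the cofactor of protein C, read 7.36, 7.68, 7.47 and 8.01 in WT TER119+ and 7.42, 8.0, 8.97 and 8.07 in WT TER119- arrays. In KO livers Pros1 read 7.2, 7.23 and 7.35 in TER119+ and 8.6, 7.64, 7.15 and 8.32 in TER119- arrays. Here the TER119- arrays reached higher than the TER119+ arrays, but the populations overlapped and the WT difference was -0.49 (SE 0.3, adjusted p = 0.193). In KO livers it was -0.66 (SE 0.33, adjusted p = 0.107), and without KO TER119- replicate 3 it was -0.92 with an adjusted p = 0.021.

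Vtn, vitronectin, differed by 5.27 in WT livers, Serpind1 (heparin cofactor II) by 3.32 and Serping1, the C1 inhibitor, by 3.01, and all 3 passed the test. Hrg, histidine-rich glycoprotein, read 4.68, 5.03, 4.53 and 5.0 in WT TER119+ and 4.55, 4.6, 4.37 and 4.72 in WT TER119- arrays. In KO livers Hrg read 4.72, 4.69 and 4.77 in TER119+ and 4.22, 4.34, 4.18 and 4.45 in TER119- arrays. Hrg was the single gene of the 33 below the array median in all 15 arrays, and its WT populations overlapped. Its difference was 0.25 (SE 0.12, adjusted p = 0.0846) in WT and 0.43 (SE 0.13, adjusted p = 0.00903) in KO livers, and without WT TER119+ replicate 3 the WT value passed as well (0.34, adjusted p = 0.0206).

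Of the complement and lectin pathway genes, 10 of 11 were higher in WT TER119+ cells, with a median difference of 2.56. Cfb, factor B, the protease of the alternative pathway, read 9.76, 10.89, 9.99 and 10.81 in WT TER119+ and 5.65, 5.98, 6.4 and 6.25 in WT TER119- arrays. In KO livers Cfb read 10.7, 10.68 and 10.05 in TER119+ and 6.3, 5.9, 5.75 and 6.09 in TER119- arrays. Cfb was 19.6-fold higher in WT TER119+ cells, a log2 difference of 4.29 (SE 0.24, adjusted p = 2.71e-10), although it was above the array median in all 15 arrays. Cfi, factor I, which inactivates the C3 fragment that Cfb needs, differed by 4.14. Of the genes of the membrane attack complex, Hc (complement C5) differed by 3.46, C8b by 3.02, C8a by 2.56, C8g by 1.57, C9 by 1 and C6 by 0.71, all past the threshold.

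The lectin pathway was uneven. Masp1 and Masp2, the proteases that circulate with mannose-binding lectin, differed by 3.32 and 1.56 in WT livers. Mbl2, one of the lectins itself, read 5.16, 5.51, 5.16 and 5.36 in WT TER119+ and 4.85, 5.68, 4.98 and 5.53 in WT TER119- arrays. In KO livers Mbl2 read 5.24, 5.29 and 5.17 in TER119+ and 4.93, 4.95, 4.83 and 5.17 in TER119- arrays. The populations overlapped for Mbl2 and the WT difference was 0.04 (SE 0.16, adjusted p = 0.852). Without WT TER119- replicates 2 and 4 and KO TER119- replicate 4, which stood apart in an earlier look at these data, it was 0.38 with an adjusted p = 0.00978. The WT arrays left out held the highest WT TER119- values of Mbl2, so leaving them out raises the difference. Only the values 4.85 and 4.98 remained in that group. Mbl1, the other mannose-binding lectin, was not among the 36 genes and was higher by 1.66 (SE 0.19, adjusted p = 1.02e-06).

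Other clotting and complement genes fell into plasma proteins and cell-bound proteins. Of 24 measured plasma proteins outside the 36, 17 were higher and 1 lower in WT TER119+ cells, with a median difference of 2.18. The highest were A2m, the broad protease trap alpha-2-macroglobulin (4.74), Apoh (3.91), the ficolin Fcna (3.77) and Crp (3.43). At the other end stood C1ra (-0.34, adjusted p = 0.118), Serpina5 (-0.28, adjusted p = 0.0184), Colec11 (-0.03, adjusted p = 0.906) and C7 (0.25, adjusted p = 0.0782). Serpina5, the protein C inhibitor, was thus the single one that was lower. It averaged only 4.01 in WT TER119+ and 4.29 in WT TER119- arrays, below the lowest array median of 5.28, so its difference is approximate. F8, the cofactor of factor IX, which endothelial cells make, differed by 0.47 (adjusted p = 0.0815).

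Receptors, cell-bound regulators and factors of other cells went both ways: of 33 measured, 14 were higher and 12 lower, with a median difference of 0.08. C1qc and C1qb, chains of C1q, which macrophages make, were higher by 3.29 and 2.81. Ggcx, the vitamin K-dependent carboxylase that prothrombin and factors VII, IX and X need, was higher by 2.99, and Cd59a, which shields cells from the membrane attack complex, by 2.49. The lowest were Itgam, a subunit of complement receptor 3, at -3.25, F13a1, the catalytic subunit of factor XIII, at -2.58, Tfpi, the tissue factor pathway inhibitor, at -1.58, and Plaur, the urokinase receptor, at -1.35. F13a1 and F13b, the subunits of 1 plasma transglutaminase, thus differed in opposite directions, and F13a1 read 6.28 to 6.78 in WT TER119+ and 8.88 to 9.62 in WT TER119- arrays.

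**Figure D2:**
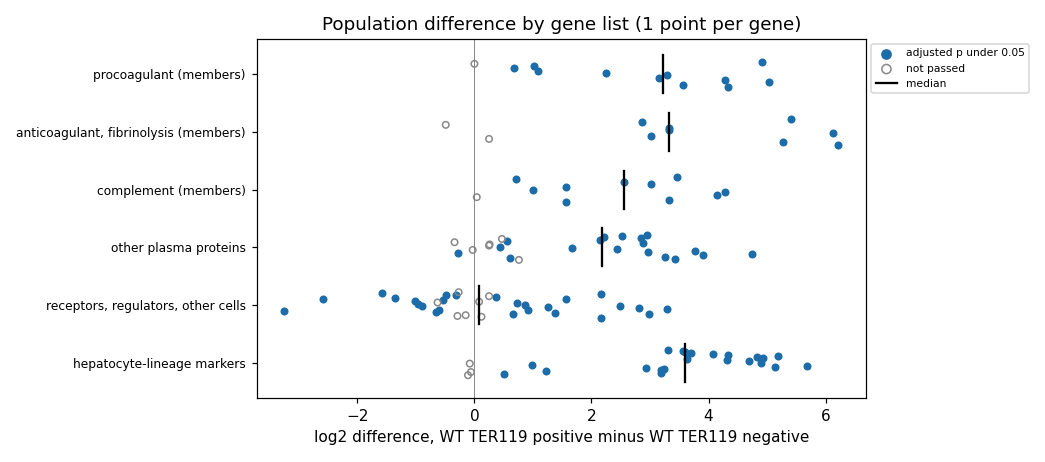
Log2 difference between TER119+ and TER119- cells of WT livers (horizontal axis), 1 point per gene, for the clotting and complement genes by role and for the comparison lists (vertical axis). Filled points passed the test, open points did not, and bars mark medians. The 3 role groups have medians of 3.22, 3.32 and 2.56, the other plasma proteins 2.18 and the receptors and cell-bound proteins 0.08.

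The TER119+ arrays were not alike. For 29 of the 33 genes the 3 lowest of the 7 TER119+ values were those of KO replicate 3 and WT replicates 1 and 3, as for 9.88% of all genes and for 20 of the 25 hepatocyte-lineage markers. The mean level of the 33 genes was 8.07, 8.94, 8.15 and 8.82 in the WT and 8.77, 8.74 and 8.24 in the KO arrays. The hepatocyte-lineage mean was 9.18, 9.82, 9.3 and 9.77 in the WT and 9.72, 9.71 and 9.31 in the KO arrays, with the same 3 arrays at the bottom. The mean of the stromal and stellate markers was also lowest in these 3, at 6.01, 6.73, 6.21 and 6.96 in the WT and 6.78, 7.0 and 6.41 in the KO arrays. That of the endothelial markers was 6.99, 7.54, 7.12 and 8.07 in the WT and 7.23, 7.43 and 7.57 in the KO arrays, lowest in WT replicates 1 and 3 and highest among the KO arrays in replicate 3. Late erythroid markers in these arrays ranged only from 11.62 to 11.76 in WT and from 11.64 to 11.7 in KO. The part of these cell types in the differences between TER119+ arrays was not tested. These 3 arrays were singled out after their values had been seen.

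**Figure D3:**
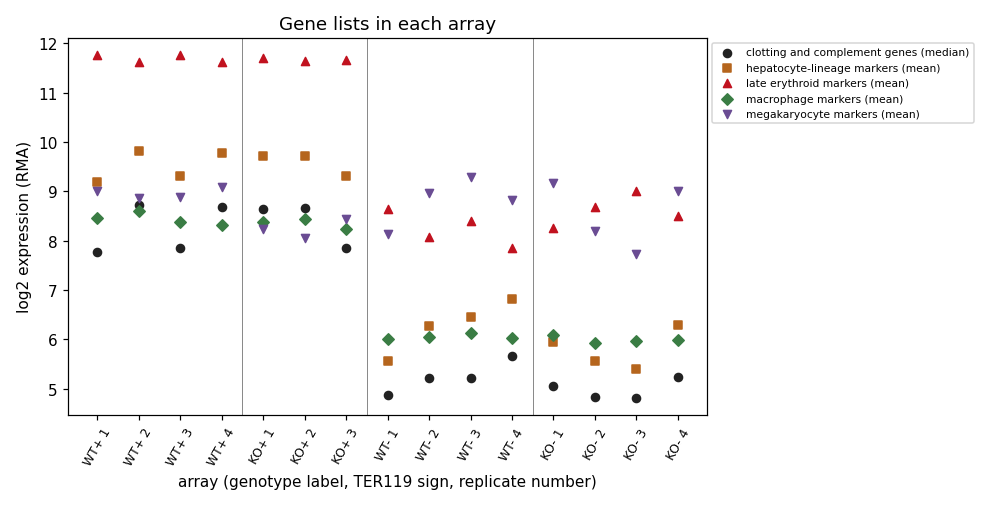
Log2 level of the clotting and complement genes (median over the 33) and of 4 marker lists (means) on the vertical axis, in each of the 15 arrays (horizontal axis). The clotting and complement genes and the hepatocyte-lineage markers are lowest, among TER119+ arrays, in KO replicate 3 and WT replicates 1 and 3, and late erythroid markers vary little there.

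The TER119- arrays varied in another way, and 21 of the 33 genes were highest in WT replicate 4 (26.9% of all genes). There were 7 highest in WT replicate 3 (11.8% of all genes) and 5 in WT replicate 2 (14.9%). None was highest in a KO array, whereas 8.32%, 6.92%, 12.3% and 10.7% of all genes were in KO replicates 1 to 4. The mean of the 33 was 5.1, 5.63, 5.74 and 6.06 in the WT and 5.43, 5.12, 5.03 and 5.66 in the KO TER119- arrays. Hepatocyte-lineage markers averaged 5.57, 6.28, 6.46 and 6.82 in the WT and 5.95, 5.56, 5.4 and 6.29 in the KO arrays, and were also highest in WT replicate 4. The genes above the array median in all 8 TER119- arrays were F5, F10, Pros1, Serpind1 and Cfb. Of these, F5, F10, Pros1 and Cfb were highest in WT replicate 3, and Serpind1 in WT replicate 4. The mean of the megakaryocyte and platelet markers was 8.13, 8.96, 9.29 and 8.82 in the WT and 9.17, 8.19, 7.72 and 9.0 in the KO TER119- arrays, so it too was highest in WT replicate 3. The endothelial mean was 5.5, 5.76, 5.98 and 5.64 in the WT and 5.94, 5.31, 5.13 and 5.75 in the KO arrays, highest in WT replicate 3 and next in KO replicate 1. The progenitor, macrophage and neutrophil means were highest in WT replicate 3 as well, at 7.76, 6.14 and 10.03. The part of none of these cell types was tested.

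**Figure D4:**
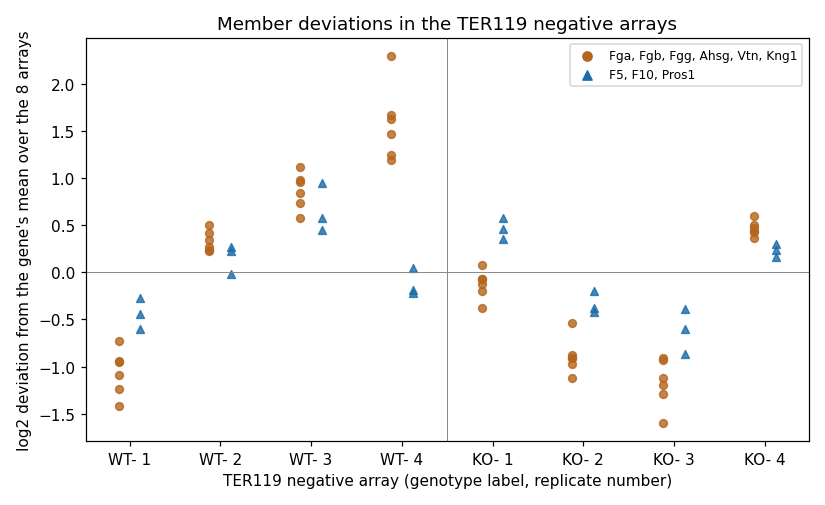
Log2 deviation of a gene from its mean over the 8 TER119- arrays (vertical axis) in each array (horizontal axis), 1 point per gene, for 2 sets chosen after their values were seen. Fga, Fgb, Fgg, Ahsg, Vtn and Kng1 (circles) are highest in WT replicate 4, and F5, F10 and Pros1 (triangles) are highest in WT replicate 3 and nearly as high in KO replicate 1.

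The second comparison asked whether the KO label changed these genes in TER119+ cells. In limma, none of the 33 passed, against 1.02% of all genes. At an unadjusted p under 0.05 there was 1 of the 33, against 5.33% of all genes. The median difference was 0.12, with 26 of 33 above 0. It was -0.04 without WT TER119+ replicate 1 and 0.32 without KO TER119+ replicate 3. Without KO replicate 3 and WT replicates 1 and 3 it was -0.08, with 28 of 33 below 0. Leaving out 1 other array gave 0.04 without KO replicate 1, 0.01 without KO replicate 2 and 0.01 without WT replicate 3. It gave 0.28 without WT replicate 2 and 0.23 without WT replicate 4. The size and sign of the median thus depended on which arrays were kept, those low in hepatocyte markers and others.

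C6, a membrane attack complex component, had the smallest p. It read 5.04, 5.07 and 4.71 in KO and 5.2, 5.49, 5.22 and 5.3 in WT TER119+ arrays. In TER119- arrays C6 read 4.61, 4.5, 4.52 and 4.65 in KO and 4.58, 4.76, 4.35 and 4.69 in WT livers. C6 was below the array median in all 8 TER119- arrays, and its KO TER119+ values lay below the lowest array median of 5.28. Its differences are thus approximate. The KO and WT TER119+ arrays of C6 did not overlap, with KO lower, as for 4.81% of all genes. With KO higher, 5.29% did not overlap. The difference was -0.36 (SE 0.12, adjusted p = 0.371), with a 95% interval of -0.62 to -0.11. With the mean of the hepatocyte-lineage markers as a covariate, in a limma fit of the TER119+ arrays alone, it was -0.39 (SE 0.09, adjusted p = 0.0435). In that fit 504 genes passed, against 350 in the same arrays without the covariate and 203 in the model of all arrays. Without the covariate, the smallest adjusted p of the 33 from limma in these arrays alone was 0.28. Pros1 was the other gene whose TER119+ groups did not overlap, also lower in KO, at -0.37 (SE 0.33, adjusted p = 1). The megakaryocyte and platelet markers averaged 8.25 ± 0.2 in KO and 8.96 ± 0.11 in WT TER119+ arrays (SD, n = 3 and 4), and their part in the Pros1 values was not tested.

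C8g, the gamma chain of complement C8, read 7.28, 7.12 and 6.7 in KO and 6.21, 7.03, 6.37 and 7.12 in WT TER119+ arrays. In TER119- arrays C8g read 5.14, 5.18, 4.96 and 4.97 in KO and 4.94, 5.17, 5.22 and 5.12 in WT livers. The groups overlapped within each population and the TER119+ difference was 0.35 (SE 0.2, adjusted p = 1). F11 read 7.84, 7.54 and 7.17 in KO and 6.88, 7.69, 6.81 and 7.62 in WT TER119+ arrays. In TER119- arrays F11 read 5.05, 4.77, 4.68 and 5.15 in KO and 4.96, 5.17, 4.69 and 5.2 in WT livers. F7 read 5.55, 5.68 and 5.41 in KO and 5.27, 5.72, 4.89 and 5.55 in WT TER119+ arrays. In TER119- arrays F7 read 4.21, 4.23, 4.16 and 4.41 in KO and 4.22, 4.39, 4.22 and 4.54 in WT livers. For both the KO and WT arrays overlapped in TER119+ cells, with differences of 0.27 (SE 0.22, adjusted p = 1) and 0.19 (SE 0.16, adjusted p = 1). The 95% intervals of the abundant genes were -0.95 to 1.2 for Fga, -0.83 to 0.9 for Ahsg and -0.4 to 0.78 for Plg, which is the precision these 7 arrays gave.

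Among the 24 other plasma proteins none passed in TER119+ cells, with 2 at an unadjusted p under 0.05. Among the 33 receptors and cell-bound proteins 2 rose and 1 fell (0.903% of all genes rose and 0.115% fell). Cd59a read 11.24, 11.13 and 11.1 in KO and 9.8, 9.71, 9.95 and 9.68 in WT TER119+ arrays. It rose 2.59-fold, a log2 difference of 1.37 (SE 0.23, adjusted p = 0.00414). Cd55, decay-accelerating factor, which breaks up the complement convertases, read 8.06, 8.36 and 8.52 in KO and 7.31, 7.37, 7.52 and 7.88 in WT TER119+ arrays and rose by 0.79 (SE 0.15, adjusted p = 0.0103). Vsig4, a complement receptor of macrophages, read 4.28, 4.55 and 4.22 in KO and 5.77, 5.99, 5.11 and 5.38 in WT TER119+ arrays. Vsig4 fell in KO, with a log2 difference of -1.21 (SE 0.17, adjusted p = 0.000491), and the groups did not overlap for any of these 3. The KO values of Vsig4 lay below the lowest array median of 5.28, so the size of its fall is approximate. The macrophage markers as a whole averaged 8.35 ± 0.1 in KO and 8.44 ± 0.13 in WT TER119+ arrays (SD, n = 3 and 4), and Vsig4 was the single one of the 16 that passed. Late erythroid markers averaged 11.66 ± 0.04 in KO and 11.69 ± 0.08 in WT.

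The third comparison made the same contrast in TER119- cells. None of the 33 passed in limma, against 0.0853% of all genes, and 3 of 33 were at an unadjusted p under 0.05, against 7.56%. All 33 differences were below 0, with a median of -0.20, whereas 46.2% of all genes were above 0. The groups overlapped for all 33 (1.22% of all genes did not overlap with KO higher, and 1.41% with KO lower). Genes from the same arrays are not independent, and the hepatocyte-lineage markers differed the same way: their mean was 5.8 ± 0.4 in KO and 6.28 ± 0.53 in WT arrays (SD, n = 4 each), and the median of their differences was -0.45. Markers of other cells differed as well: all 13 late erythroid markers were higher in KO, with a median of 0.35, whereas 10 of 10 megakaryocyte, 12 of 13 neutrophil, 11 of 12 endothelial and 12 of 14 stromal markers were lower, with medians of -0.24, -0.27, -0.21 and -0.12. None of these markers passed after adjustment, and their part in the result was not tested. With the hepatocyte mean as a covariate, in a fit of the TER119- arrays alone, the median of the 33 was 0.01, with 20 of 33 above 0. With sex as a factor it was -0.21, with 27 below 0, and without WT replicates 2 and 4 and KO replicate 4 it was -0.16. Leaving out 1 array gave -0.37 without WT replicate 1, -0.32 without KO replicate 4 and -0.12 without WT replicate 4, the last with 3 of 33 above 0.

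The genes with the smallest p in TER119- cells were Ahsg, Hrg, Fga and Plg, whose values in every array stand above. For Ahsg the KO minus WT difference was -0.95 (SE 0.38, adjusted p = 0.653), with a 95% interval of -1.75 to -0.14. For Fga it was -1.03 (SE 0.47, adjusted p = 0.655), with an interval of -2.02 to -0.03. In both, KO replicates 1 and 4 lay within the WT range and WT replicate 1 within the KO range. For Fga, WT replicate 2 lay within the KO range as well. Plg differed by -0.52 (SE 0.26, adjusted p = 0.655) and Hrg by -0.26 (SE 0.12, adjusted p = 0.655). No receptor, cell-bound protein or other plasma protein passed in TER119- cells either, with 4 of 33 and 2 of 24 at an unadjusted p under 0.05. Cd59a and Cd55, which rose in KO TER119+ cells, differed by 0.57 (SE 0.22, adjusted p = 0.644) and 0.37 (SE 0.14, adjusted p = 0.644) here.

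**Figure D5:**
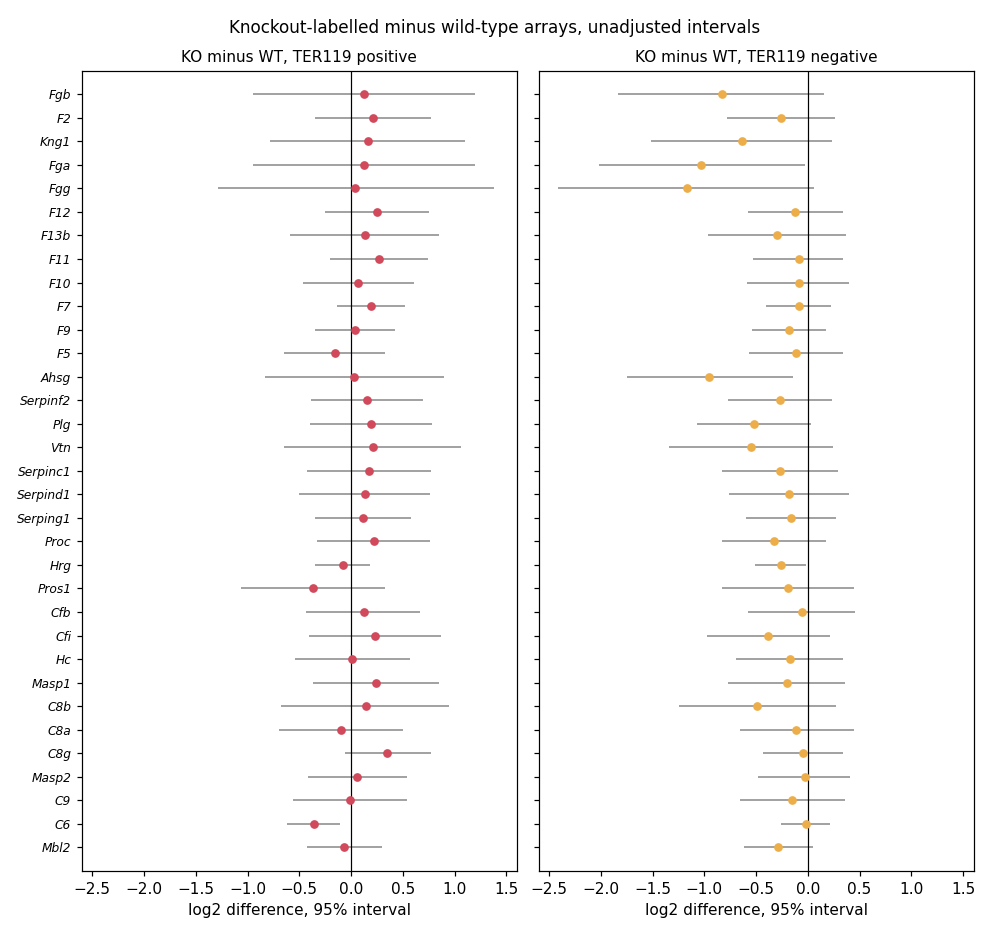
KO minus WT log2 difference of each of the 33 genes with its unadjusted 95% interval (horizontal axis; genes on the vertical axis), in TER119+ and in TER119- cells. In TER119+ cells 26 of 33 estimates lie above 0 and in TER119- cells all 33 lie below 0, and none passed after adjustment.

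The last comparison tested whether the KO difference itself differed between the populations. None of the 33 passed in limma, against 0.436% of all genes, and none was at an unadjusted p under 0.05, against 4.27%. The difference in TER119+ minus that in TER119- cells had a median of 0.37, with 30 of 33 above 0, against 50% of all genes. The median was 0.22 without WT TER119+ replicate 3, 0.24 without WT TER119+ replicate 1, 0.56 without KO TER119+ replicate 3, and 0.13, with 24 of 33 above 0, without all 3. The smallest unadjusted p was 0.0546 for C6, at -0.34 (SE 0.16). Plg, Ahsg and Fga followed at 0.71, 0.98 and 1.15, with unadjusted p-values of 0.08, 0.0979 and 0.117 from limma and SEs of 0.38, 0.56 and 0.69. None of the cell-bound or plasma genes of the other lists passed this test, Cd59a, Cd55 and Vsig4 included, at 0.8, 0.42 and -1.06 with adjusted p = 0.999, 0.999 and 0.0607.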

How the data were processed

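Per the submitters' processing notes, the authors made the deposited log2 values per probe set with Partek and RMA (no version was stated). Of 35399 probe sets, 21789 carried 1 gene symbol, and the probe set of highest mean stood for each of 19938 genes. RMA compresses differences between dim signals. The array medians lay between 5.28 and 5.43.

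All 15 arrays entered 1 linear model with a mean per group and no covariates in limma 3.58.1 under R 4.3.3, with 11 residual degrees of freedom. Adjusted p-values come from the moderated 2-sided test of limma, with Benjamini-Hochberg adjustment over 19938 genes and a threshold of 0.05. Errors are standard errors of differences or standard deviations (SD) of levels, and the number of arrays limits their precision. On simulated data, a log2 change of 1 was recovered for 84% of genes in the TER119+ and 87% in the TER119- comparison. These shares cover all 19938 genes and do not give the recovery for the clotting and complement genes. Fga, for example, differed by -1.03 (SE 0.47) between KO and WT TER119- arrays and did not pass in limma (adjusted p = 0.655).

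The genes and lists were chosen with earlier results of these data known. Every gene of the 36 is named, and values per array are given for key genes of each role, for the 3 highest and 3 lowest WT population differences and for the 4 smallest p-values of each KO comparison. Genes of the other lists are named where they passed in a KO comparison or were among the 4 highest or lowest, with Mbl1, F8, Vkorc1, Lman1, Mcfd2, Asgr1, Asgr2, the liver transcription factors and the comparison of F13a1 with F13b added after their values were seen. Other normalizations, filters, weights, covariates, a replicate block and leaving out arrays were tried.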

Additional observations from a re-analysis of the deposited data

Results flagged for a closer look

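Among 99 groups of 4 arrays (33 genes in 3 groups), 2 held an array that stood apart from the others of its group, and chance alone sets 1 in about 20 groups apart. Both were in KO TER119- replicate 4. Serpind1, heparin cofactor II, read 7.35 there and 6.69 to 6.75 in the other KO TER119- arrays. Hc, complement C5, read 4.83 there and 4.5 to 4.52 in the others. This array also had the highest mean of the hepatocyte-lineage markers among the KO TER119- arrays, at 6.29.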

How the results depend on the processing

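No called gene of the 33 changed direction under any setting tried. The number called stayed between 25 and 31 in the population comparisons, with 25 of 27 where dim genes were left out, and at 0 in the KO comparisons and the interaction, except for C6 with the hepatocyte covariate (1 in TER119+ cells). The median of the 33 in WT livers moved from 3.15 to 3.679 without the 3 TER119+ arrays low in hepatocyte RNA, a setting chosen after seeing the data. Over all genes, 203 calls in KO TER119+ cells became 350 with only the arrays compared and 386 with array weights. They became 504 with the hepatocyte covariate, which was also fitted to only the arrays compared, and 109 without those 3 arrays. The 17 calls in TER119- cells became 4, 31 and 5 under the first 3 of these, 7 with sex as a factor and 8 without WT TER119- replicates 2 and 4 and KO TER119- replicate 4. Leaving out each array gave 8 to 24, with 8 without KO TER119- replicate 3 or WT TER119- replicate 2 and 11 without KO TER119- replicate 2. The 17 were 15 higher and 2 lower, and 17 higher and 0 lower with arrays centred. The interaction's 87 became 47 without the 3 low TER119+ arrays. The cause of these changes was not tested. In KO livers, C6 no longer passed between populations without KO TER119+ replicate 1 (0.32, adjusted p = 0.0784) or 2 (0.30, adjusted p = 0.0907). Replicate numbers did not consistently pair the samples. Deviations of same-numbered KO and WT arrays correlated at -0.22 to 0.25 in TER119+ and -0.38 to 0.65 in TER119- cells. Only for replicate 4 of TER119- cells, at 0.65, was the same-numbered WT array the best match of the KO array. Same-numbered TER119+ and TER119- arrays of 1 genotype correlated at -0.31 to 0.12. With the replicate block, 0 of 33 passed in either KO comparison, 30 passed in each population comparison, and 186 and 13 genes passed over all in TER119+ and TER119- cells.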

Other observations

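Liver transcription factors were set beside the genes they are known to regulate. Of 14 measured, 12 were higher in WT TER119+ cells, with a median difference of 1.20. Hnf4a, a nuclear receptor of hepatocytes, was higher by 3.19 (SE 0.15, adjusted p = 3.99e-11), Prox1 by 3.18 and Nr5a2 by 2.18. Foxa2 and Nr1i3 did not pass, at -0.06 and -0.23. None of the 14 passed in either KO comparison in limma, with 0 and 1 at an unadjusted p under 0.05 in TER119+ and TER119- cells.

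Proteins that finish or carry clotting factors did not all follow them. Beside Ggcx, Vkorc1, which recycles vitamin K, was higher by 0.66 (adjusted p = 0.00194). Lman1 and Mcfd2, the receptor pair that takes factors V and VIII out of the endoplasmic reticulum, differed by -0.15 and -0.29 (adjusted p = 0.398 and 0.169). Asgr2, a subunit of the liver's receptor for desialylated glycoproteins, was higher by 2.17, while its partner Asgr1 differed by 0.12 (adjusted p = 0.259). Asgr1 averaged only 4.67 in WT TER119+ and 4.55 in WT TER119- arrays, below the lowest array median of 5.28. Whether its probe set read above background is unknown.

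The probe set that Klkb1 shares with Cyp4v3 averaged 7.61 ± 0.48 in WT TER119+ and 5.51 ± 0.21 in WT TER119- arrays (SD, n = 4 each), and cannot be divided between the genes. The second probe set of Fga averaged 10.29 ± 0.64 and 5.25 ± 0.42 in the same groups, against 10.78 ± 0.5 and 6.5 ± 1.13 for the one used.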
